A study of Mus musculus with 2 samples.

Results

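Citrate synthase, cytosolic aconitase and the cytosolic and mitochondrial forms of isocitrate dehydrogenase and malate dehydrogenase were examined in brown preadipocytes (D0) and brown adipocytes (D7). The 9 genes Cs, Aco1, Idh1, Idh2, Idh3a, Idh3b, Idh3g, Mdh1 and Mdh2 were taken by their symbols from the deposited table, in which 23361 genes carried values. The cells were taken from interscapular brown fat of newborn C57BL/6 mice (C57BL/6J in the methods of the study), and there was 1 library per stage. Both groups were kept, per the labels, in medium containing insulin at 0.1 μM together with T3, a thyroid hormone, at 1 nM. D7 cells had in addition received the inducers indomethacin (0.125 mM), dexamethasone (2 μg/ml) and IBMX (0.5 mM) from day 0 for 2 days. The labels call the cells primary cultures, whereas the methods of the study describe immortalization with large T and give other concentrations of insulin and dexamethasone. The methods also name insulin and T3 only for differentiation, not for the culture of preadipocytes before it. The strain was the same in both groups, and no genetic change other than the immortalization with large T is named. The methods describe the use of several newborn mice of either sex. Whether their cells were pooled is not given in the sources used here.

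The citrate cycle in the mitochondrial matrix begins when citrate synthase joins acetyl-CoA to oxaloacetate. Citrate is then turned into isocitrate by aconitase, isocitrate is oxidized by isocitrate dehydrogenase, and malate is oxidized back to oxaloacetate by malate dehydrogenase. Several of these reactions also take place in the cytosol, where separate genes encode the enzymes, and there citrate carried out of the mitochondria feeds fatty acid synthesis. Brown adipocytes are known both for abundant mitochondria and for active lipid synthesis.

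The levels are FPKM as deposited by the authors, without rescaling, which count fragments relative to the length of the transcript and to the depth of the library. They are corrected for length, so levels of different genes can be set side by side. The fragments behind each value were recovered from the steps between low values, and these steps put the depth at 21472000 fragments for D0 and 18266000 for D7. With 1 library per stage no test and no p-value were possible. The 95% intervals below are exact Clopper-Pearson intervals on fragments for a ratio of FPKM, or exact conditional intervals for a change between genes. They cover counting error only and say nothing on the spread between cultures.

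The stage labels were checked against marker genes. All 6 adipocyte markers were higher at D7, with a summed FPKM of 27.1 at D0 and 16308 at D7. All 6 brown adipocyte markers were higher as well, with sums of 7.99 and 709. Of these, 4 (Ucp1, Cidea, Elovl3 and Cox8b) were listed at 0 at D0, where nearly all of the sum was Cox7a1 (7.96). Most of the sum at D7 was Cox7a1 (388.6) and Cox8b (253.0). At D7 Elovl3 stood at 34.2, Cidea at 24.4, Ucp1 at 4.57 and Ppargc1a at 4.41. Of the 6 preadipocyte markers, Pdgfrb and Thy1 were past 2.0-fold lower at D7, while Cd34 and Dlk1 were past 2.0-fold higher. All 9 macrophage markers were higher at D7, from a summed FPKM of 154 to 578, none was at 0 in a library, and their part in the values below was not tested. The 5 endothelial markers summed to 1.58 and 2.62. Of the 5 skeletal muscle markers, Myod1 and Ckm were at 0 in both libraries, and the sum was 46.0 at D0 and 2.73 at D7, nearly all of it Acta1 at D0. The 4 erythroid markers summed to under 1 in both libraries. In bulk RNA, a change in the number of cells of a type and a change in RNA per cell cannot be told apart.

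All 9 genes had an FPKM of at least 1 in both libraries, and all 9 were higher at D7 than at D0. Of these, 8 were higher by at least 2.0-fold, the threshold of the study, and none was lower. Among the 14986 genes above 0 in both libraries, 18.5% were higher by at least 2.0-fold and 13.2% were lower. Among the 10773 genes with an FPKM of at least 1 in both, 11.8% were higher. The median ratio of D7 to D0 was 4.91 over the 9 genes and 1.01 over all 14986 genes. The summed FPKM of the 9 genes was 699.6 at D0 and 2978 at D7, or 0.137% and 0.570% of all FPKM in the library. In another scaling, in which values under 0.01 were raised to 0.01 and each library was divided by its median, every ratio above that floor was multiplied by 0.783 (-0.35 on the log2 scale). Then 6 of the 9 genes stayed past 2.0-fold, since Idh1 came to 1.79 and Mdh2 to 1.98, and over all genes 2836 were higher and 3832 lower, against 2767 and 1980 as deposited. The floor also lets genes listed at 0 in a library into the counts of 2836 and 3832. Those are out of 23361 genes, whereas 2767 and 1980 are out of 14986, so the counts are not directly comparable.

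**Figure D1:**
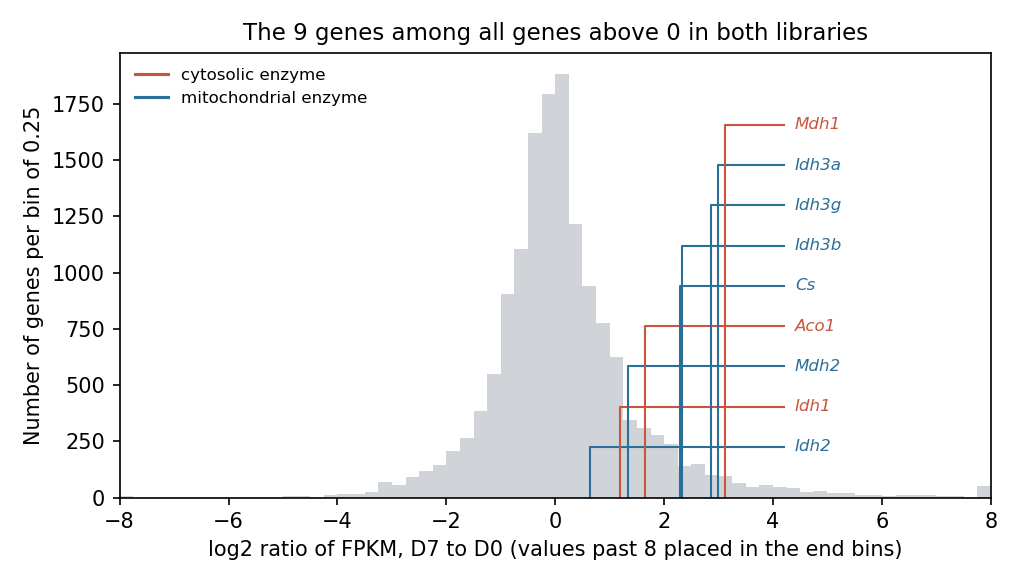
Grey bars show the number of genes (vertical axis) per bin of the log2 ratio of FPKM at D7 to D0 (horizontal axis) for the 14986 genes above 0 in both libraries. The lines of the 9 genes, red for cytosolic and blue for mitochondrial enzymes, lie right of the centre, from Idh2 at 0.64 to Mdh1 at 3.12.

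Cs encodes citrate synthase, the enzyme of the first step, which is often taken as a measure of mitochondrial amount. Cs (chr10:128337734-128362479, plus strand) measured 98.6 FPKM at D0 against 483.5 FPKM at D7. The level at D7 thus lay well above that at D0, with a ratio of 4.91 (95% interval 4.77 to 5.05). Of the 50-base stretches of its transcript, 4.00% also occur in transcripts of Csl, a related gene that was listed at 0 in both libraries. None of the stretches of the other 8 transcripts occurred in another annotated gene.

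Aco1 encodes cytosolic aconitase, which without its iron-sulfur cluster binds messenger RNAs as iron regulatory protein. Aco1 (chr4:40143081-40198338, plus strand) measured 19.6 FPKM at D0 against 61.5 FPKM at D7. It was the lowest of the 9 genes at D0 and shared the lowest level with Idh2 at D7. Its ratio was 3.13 (2.95 to 3.32).

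Idh1 and Idh2 encode the NADP-dependent isocitrate dehydrogenases of the cytosol and the mitochondria, which yield NADPH. Idh1 (chr1:65158616-65186500, minus strand) measured 95.4 FPKM at D0 against 218.3 FPKM at D7, a ratio of 2.29 (2.20 to 2.37). Idh2 (chr7:80094846-80115392, minus strand) measured 39.5 FPKM at D0 against 61.6 FPKM at D7. Its ratio of 1.56 (1.45 to 1.67) was the smallest of the 9 and did not reach 2.0-fold, and its interval excluded both 1 and 2.0. The annotation places Gm45203, on the same strand, within Idh2.

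The NAD-dependent isocitrate dehydrogenase of the mitochondria is built from the products of Idh3a, the catalytic subunit, and of Idh3b and Idh3g. Idh3a (chr9:54586334-54604661, plus strand) measured 32.8 FPKM at D0 against 261.0 FPKM at D7, a ratio of 7.95 (7.54 to 8.39). Idh3g (chrX:73778963-73786897, minus strand) measured 44.8 FPKM at D0 against 326.4 FPKM at D7, a ratio of 7.29 (6.84 to 7.78). Idh3b (chr2:130279309-130284547, minus strand) measured 71.8 FPKM at D0 against 360.0 FPKM at D7, a ratio of 5.01 (4.79 to 5.25). All the subunits were therefore several times higher at D7, and Idh3b, the highest of them in each library, had the smallest ratio. The ends of Idh3b and of Nop56 on the opposite strand overlap, and the table gives both genes 1 locus. Nop56 had FPKM of 43.5 and 15.2. The methods of the study describe libraries in which the second cDNA strand was degraded, which keeps the strand. Whether the counting used it is not given in the sources used here, so the value of Idh3b is uncertain to that extent.

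Mdh1 and Mdh2 encode the cytosolic and the mitochondrial malate dehydrogenase, which interconvert malate and oxaloacetate with NAD. Mdh1 (chr11:21556787-21572367, minus strand) measured 74.0 FPKM at D0 against 641.9 FPKM at D7. Its ratio of 8.67 (8.35 to 9.005) was the largest of the 9. Mdh2 (chr5:135778480-135790398, plus strand) measured 223.0 FPKM at D0 against 563.5 FPKM at D7, a ratio of 2.53 (2.45 to 2.60). Mdh1 thus went from below Mdh2 to above it. The annotation places Wdpcp on the opposite strand and Gm22990 on the same strand at Mdh1.

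**Figure D2:**
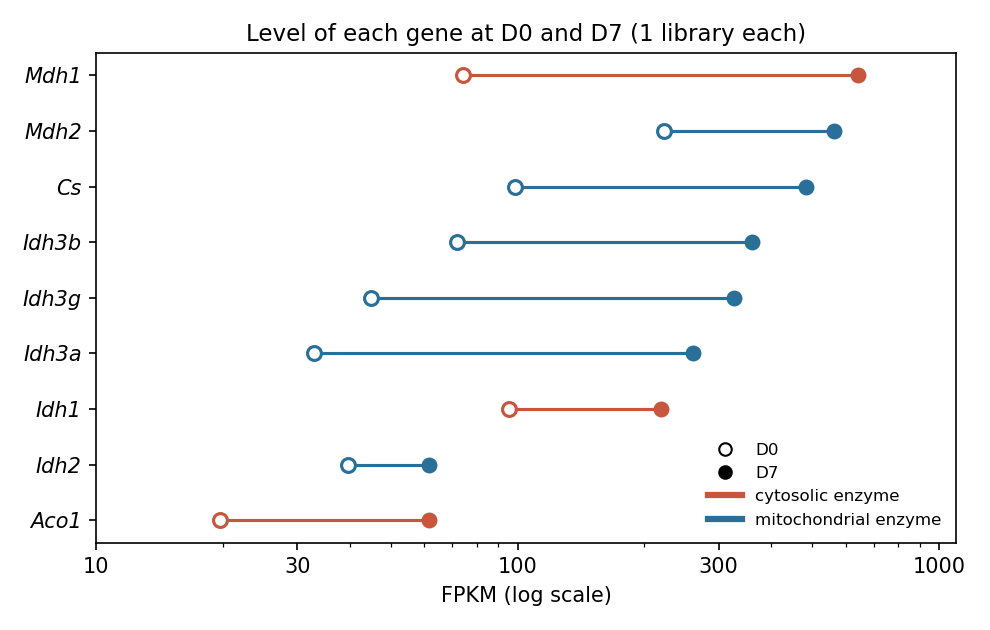
FPKM of each of the 9 genes on a logarithmic horizontal axis, with an open circle for the D0 library, a filled circle for the D7 library, red for cytosolic and blue for mitochondrial enzymes. Every filled circle lies right of its open circle, and the shortest line is that of Idh2, from 39.5 to 61.6.

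At D0 the order of the levels was Mdh2, Cs, Idh1, Mdh1, Idh3b, Idh3g, Idh2, Idh3a and Aco1. The highest level was 11.4 times the lowest. Cs and Idh1 (ratio 1.03, interval 0.993 to 1.07) did not differ beyond counting error, nor did Mdh1 and Idh3b (1.03, 0.976 to 1.09). At D7 the order was Mdh1, Mdh2, Cs, Idh3b, Idh3g, Idh3a, Idh1, Idh2 and Aco1, and the highest level was 10.4 times the lowest. Here Idh2 and Aco1 did not differ beyond counting error (1.00, 0.946 to 1.06). All other neighbours differed by more than counting error in their own library. The range between the highest and lowest gene was therefore much alike in the 2 libraries, while the order within it changed. Mdh1 passed Idh1, Cs and Mdh2. Idh3a, Idh3b and Idh3g passed Idh1, and Idh3a also passed Idh2.

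**Figure D3:**
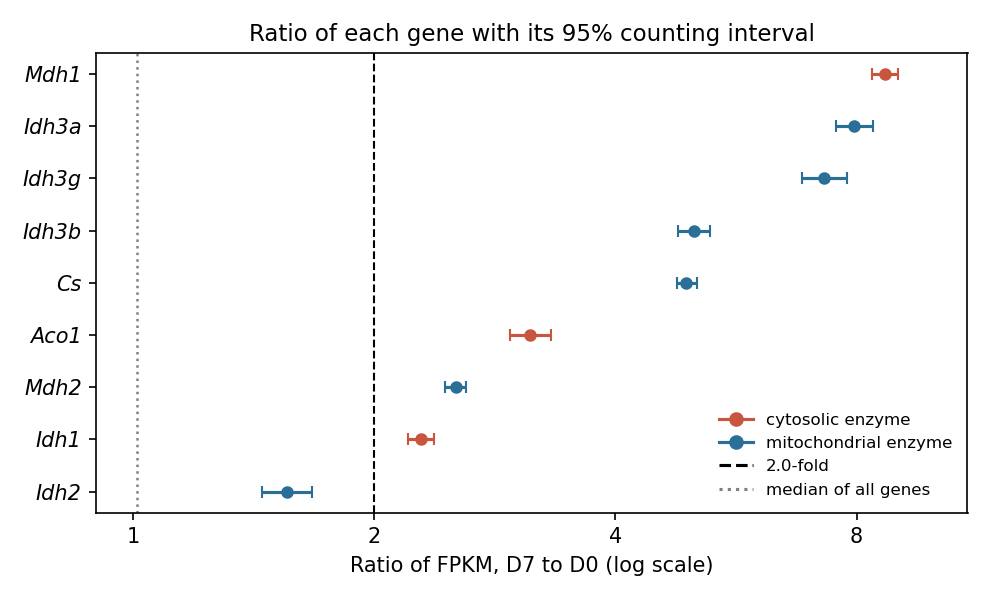
Ratio of FPKM at D7 to D0 for each gene (points, logarithmic axis) with its exact 95% counting interval (bars), a dashed line at 2.0-fold and a dotted line at the median ratio of all genes, 1.01. Only Idh2, at 1.56, lies left of the dashed line, and the cytosolic genes (red) lie at 2.29, 3.13 and 8.67 among the mitochondrial ones (blue).

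The ratios did not sort by compartment. The 3 cytosolic genes ranged from 2.29 to 8.67, with a median of 3.13, and the 6 mitochondrial genes from 1.56 to 7.95, with a median of 4.96. For malate dehydrogenase and NADP-dependent isocitrate dehydrogenase the forms were compared directly, as the change of their quotient from D0 to D7. This change depends neither on the scaling between the libraries nor on the lengths of the transcripts, and its interval covers counting error only.

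For malate dehydrogenase the cytosolic form held a larger share at D7. Mdh1 made up 24.9% (95% interval 24.1 to 25.7) of the summed FPKM of Mdh1 and Mdh2 at D0 and 53.3% (52.7 to 53.8) at D7. The quotient of Mdh1 to Mdh2 was 0.332 at D0 and 1.14 at D7, a change of 3.43 times (3.27 to 3.61).

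For NADP-dependent isocitrate dehydrogenase the share of the cytosolic form was larger by less. Idh1 made up 70.7% (69.4 to 72.0) of Idh1 plus Idh2 at D0 and 78.0% (77.1 to 78.9) at D7. The quotient changed by 1.47 times (1.35 to 1.59).

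Summed over malate dehydrogenase and NADP-dependent isocitrate dehydrogenase, the cytosolic forms made up 39.2% of FPKM at D0 and 57.9% at D7. The NAD-dependent subunits, also mitochondrial, were not counted in these shares. They summed to 149.4 FPKM at D0 and 947.3 at D7, so counting them would make the cytosolic share smaller in both libraries. Of the cytosolic sum of 860.2 FPKM at D7, Mdh1 made up 641.9 and Idh1 218.3.

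**Figure D4:**
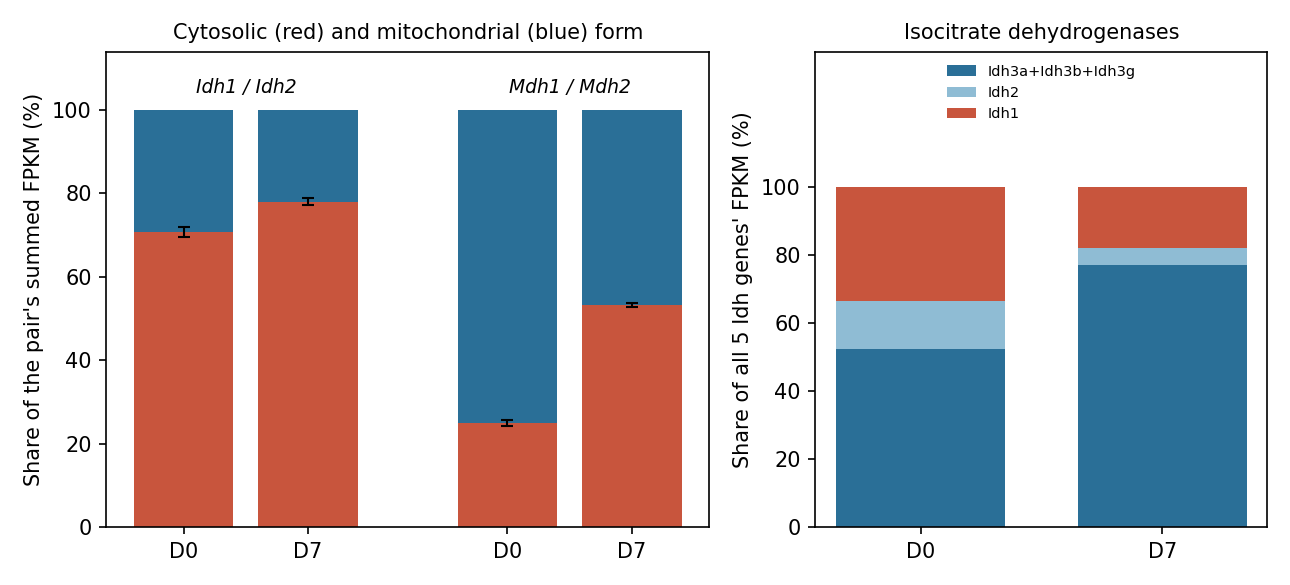
Left, share (%) of the cytosolic form (red) and the mitochondrial form (blue) in the summed FPKM of each pair at D0 and D7, with exact 95% counting intervals, where the red share is larger at D7 for both pairs, and more so for Mdh1 and Mdh2, from 24.9% to 53.3%. Right, shares of the NAD-dependent subunits (dark blue), Idh2 (light blue) and Idh1 (red) in the summed FPKM of all 5 isocitrate dehydrogenase genes, where the NAD-dependent subunits take 52.5% at D0 and 77.2% at D7.

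Within the mitochondria, the NAD-dependent and the NADP-dependent isocitrate dehydrogenase had unequal ratios. Idh3a stood at 0.831 times Idh2 at D0 and at 4.24 times at D7, a change of 5.10 times (4.66 to 5.58). The corresponding changes were 4.68 times (4.25 to 5.15) for Idh3g and 3.22 times (2.95 to 3.51) for Idh3b. Every subunit thus stood higher against Idh2 at D7, by more than counting error. Over all 5 isocitrate dehydrogenase genes, the summed FPKM of the NAD-dependent subunits was 52.5% at D0 and 77.2% at D7. Idh1 went from 33.6% to 17.8%, and Idh2 from 13.9% to 5.02%. The first share adds several subunits of a single enzyme, so it is no measure of its amount against Idh1 or Idh2. The catalytic subunit Idh3a alone was below both at D0 (32.8, against 95.4 and 39.5). At D7 it was above both (261.0, against 218.3 and 61.6). These comparisons with Idh2 were added after the values were seen.

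Among the subunits of the NAD-dependent enzyme the levels came closer together. The highest was 2.19 times the lowest at D0 and 1.38 times at D7. Idh3a stood higher at D7 against Idh3b by 1.58 times (1.48 to 1.70) and against Idh3g by 1.09 times (1.00 to 1.19), where the lower bound lay just above 1. Idh3g stood higher against Idh3b by 1.45 times (1.34 to 1.57).

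Set against Cs, the genes divided into those with larger, equal and smaller ratios. Mdh1 (1.77 times, interval 1.68 to 1.85), Idh3a (1.62, 1.52 to 1.72) and Idh3g (1.49, 1.38 to 1.59) stood higher against Cs at D7. For Idh3b, whose value is uncertain because of the locus shared with Nop56, the change included 1 (1.02, 0.967 to 1.08). Aco1 (0.638, 0.598 to 0.682), Mdh2 (0.515, 0.493 to 0.536), Idh1 (0.466, 0.445 to 0.488) and Idh2 (0.318, 0.294 to 0.343) stood lower against it. The genes higher against Cs and those lower against it each included both cytosolic and mitochondrial enzymes.

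Promoter windows of the RefSeq genes (GRCm38.p6), from 250 bases before to 50 bases after a start, were found for 8 of the 9 genes, with a second window for Idh1, and none was matched for Idh3a. Those of Mdh1 and Mdh2, the cytosolic and the mitochondrial form of the pair with the larger change of share, and those of Idh3g and Idh2, mitochondrial enzymes of the same step with a large and the smallest ratio, are shown. Capitals mark the motifs CCAAT and GGGCGG (the GC box) on either strand. The windows lie at chr11:21571885-21572184 (minus strand), chr5:135778399-135778698 (plus), chrX:73786848-73787147 (minus) and chr7:80115301-80115600 (minus), in this order.
Mdh1: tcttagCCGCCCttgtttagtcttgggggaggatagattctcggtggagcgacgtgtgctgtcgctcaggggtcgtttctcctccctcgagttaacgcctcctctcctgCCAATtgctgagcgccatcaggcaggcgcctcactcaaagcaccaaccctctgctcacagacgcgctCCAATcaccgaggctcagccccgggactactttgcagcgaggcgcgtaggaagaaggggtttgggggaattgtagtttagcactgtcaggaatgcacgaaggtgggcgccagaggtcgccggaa
Mdh2: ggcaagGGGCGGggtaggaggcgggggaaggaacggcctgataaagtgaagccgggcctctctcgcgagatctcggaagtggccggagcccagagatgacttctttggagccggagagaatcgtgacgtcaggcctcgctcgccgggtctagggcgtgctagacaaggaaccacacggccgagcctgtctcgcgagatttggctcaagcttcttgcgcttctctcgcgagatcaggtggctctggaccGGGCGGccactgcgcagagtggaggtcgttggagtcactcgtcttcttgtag
Idh3g: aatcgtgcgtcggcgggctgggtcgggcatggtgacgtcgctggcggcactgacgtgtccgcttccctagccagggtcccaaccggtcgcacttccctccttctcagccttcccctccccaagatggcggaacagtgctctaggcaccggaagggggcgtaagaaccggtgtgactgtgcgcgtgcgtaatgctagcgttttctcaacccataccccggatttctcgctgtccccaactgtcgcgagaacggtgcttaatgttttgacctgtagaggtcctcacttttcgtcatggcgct
Idh2: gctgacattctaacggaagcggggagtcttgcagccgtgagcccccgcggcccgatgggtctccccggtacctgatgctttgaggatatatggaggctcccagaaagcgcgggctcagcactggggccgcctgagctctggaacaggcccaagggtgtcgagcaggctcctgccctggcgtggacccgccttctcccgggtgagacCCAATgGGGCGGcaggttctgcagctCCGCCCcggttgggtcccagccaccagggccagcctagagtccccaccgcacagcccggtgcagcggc

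The Mdh1 window held CCAAT at positions -141 and -74 from the start and a GC box at -244, while the Mdh2 window held GC boxes at -244 and -2 and no CCAAT. The Idh2 window held CCAAT at -44 beside GC boxes at -38 and -18, and the Idh3g window held neither motif. Over the 9 windows, CCAAT was found in 5 and the GC box in 7, against 37.4% and 35.7% of all 32851 windows. The element TCAAGGTCA of estrogen-related receptors (0.423% of all windows), GCGCNNGCGC of NRF1 (6.23%) and the E-box CACGTG (7.15%) were found in 0 of the 9. GC content was 50.3% for Idh3b and between 58.7% and 68.3% for the others, against a median of 52.7% over all windows. Motifs were searched on both strands, and matches describe these letters only.

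The genes around the 9 were read from lists. Their counts stand beside 18.5% of all genes above 0 in both libraries higher by at least 2.0-fold and 13.2% lower. Of the other citrate cycle genes, 11 were read, and each was higher at D7, 10 of them by at least 2.0-fold, with a median ratio of 3.33. The largest ratio was that of Dld, the subunit that the oxoglutarate and pyruvate dehydrogenases share, at 5.79 (5.51 to 6.09) with FPKM of 36.3 and 210.3. Sdhc, a subunit of succinate dehydrogenase, had the smallest ratio of the 10, 2.43 (2.37 to 2.50), with FPKM of 126.0 and 306.1, and 1.90 in the scaling by the library median. Suclg2, the GTP-specific subunit of succinyl-CoA ligase, did not reach 2.0-fold, with FPKM of 25.3 and 47.3 and a ratio of 1.87 (1.76 to 1.99). Idh2 therefore had a smaller ratio than any of these 11 genes, and Mdh1, Idh3a and Idh3g had larger ratios than any of them.

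The list of citrate use and NADPH covers the export of citrate, its cleavage, fatty acid synthesis and the enzymes that yield NADPH in the cytosol. Of its 10 genes, 9 were past 2.0-fold upward, with a median ratio of 19.7. Slc25a1, the citrate carrier of the inner membrane, had FPKM of 93.4 and 840.1, a ratio of 8.996 (8.66 to 9.35). Acly, which cleaves citrate to acetyl-CoA and oxaloacetate in the cytosol, had FPKM of 120.7 and 1644, a ratio of 13.6 (13.4 to 13.9). Me1, the cytosolic malic enzyme, which yields NADPH from malate, had FPKM of 66.2 and 1881, a ratio of 28.4 (27.6 to 29.3). Acly and Me1 stand before and after cytosolic malate dehydrogenase on the way from citrate to pyruvate. The ratio of Mdh1 (8.67, interval 8.35 to 9.005) lay close to that of Slc25a1, and their counting intervals overlapped. Idh1, also a source of cytosolic NADPH, had a smaller ratio (2.29) than Me1, than G6pdx of the pentose phosphate pathway (7.51, FPKM 29.7 and 222.7) and than Pgd of the same pathway (3.22, FPKM 101.0 and 325.0). The largest ratio was that of Acacb, an acetyl-CoA carboxylase, with FPKM of 0.477 and 32.2 (67.5, interval 54.4 to 84.6). Mthfd1, a folate enzyme, was the exception with FPKM of 13.5 and 12.1, a ratio of 0.897 (0.811 to 0.993).

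The 14 genes read of redox shuttles and of anaplerosis, the supply of cycle intermediates, were divided. By at least 2.0-fold, 7 were higher and 1 was lower at D7, and 6 lay between, with a median ratio of 2.32. Among all genes above 0 in both libraries, 18.5% were higher and 13.2% lower. A filter at an FPKM of at least 1 in both libraries removed Gpd1, Me3, Pck1 and Slc25a13 from the list. Of the genes left, 4 were higher, against 11.8% of all genes under that filter.

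Mdh1 and Mdh2 are also parts of the malate-aspartate shuttle, which carries reducing equivalents of NADH into the mitochondria. The other genes of this shuttle in the list did not reach 2.0-fold in the upward direction. Got1, the cytosolic aspartate aminotransferase, had FPKM of 31.0 and 24.2, a ratio of 0.781 (0.714 to 0.853). Got2, the mitochondrial form, had FPKM of 95.4 and 121.8, a ratio of 1.28 (1.23 to 1.33) that came to 1.00 in the scaling by the library median. Slc25a11, the oxoglutarate-malate carrier, had FPKM of 49.9 and 71.8, a ratio of 1.44 (1.35 to 1.54). The aspartate-glutamate carriers were lower at D7. Slc25a12 had FPKM of 16.2 and 9.58, a ratio of 0.590 (0.548 to 0.635), and Slc25a13 of 3.77 and 0.839, a ratio of 0.222 (0.158 to 0.307) on about 238 and 45 fragments. The ratio of Mdh1, 8.67, and that of Mdh2, 2.53, were thus both above those of these 5 genes.

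The glycerol phosphate shuttle, another route for cytosolic NADH, had large ratios. Gpd1, its cytosolic dehydrogenase, had FPKM of 0.322 and 760.6, a ratio of 2365 (1476 to 3830) on about 19 fragments at D0. Gpd2, the mitochondrial partner, had FPKM of 9.88 and 82.5, a ratio of 8.36 (7.86 to 8.89). Pcx, pyruvate carboxylase, which makes the oxaloacetate that citrate synthase uses, had FPKM of 9.86 and 841.5, a ratio of 85.4 (79.8 to 91.5). Slc25a10, the dicarboxylate carrier, which moves malate, had FPKM of 4.24 and 128.4, a ratio of 30.3 (25.9 to 35.5). Glud1, glutamate dehydrogenase, had FPKM of 84.4 and 315.2, a ratio of 3.74 (3.63 to 3.85).

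The remaining genes of that list had low levels or no higher level at D7 by 2.0-fold. Me3, a mitochondrial malic enzyme, had FPKM of 0.133 and 0.980, a ratio of 7.35 (4.08 to 15.2) on about 12 and 77 fragments. Pck1, the cytosolic phosphoenolpyruvate carboxykinase, had 1 fragment at D0 and about 30 at D7, with FPKM of 0.0191 and 0.652 and an interval of the ratio from 5.87 to 1440. Pck2, the mitochondrial form, had FPKM of 51.2 and 26.9, a ratio of 0.526 (0.496 to 0.559). Me2, another mitochondrial malic enzyme, had a ratio of 1.01 (FPKM 15.1 and 15.2). The interval of Me2 from 0.910 to 1.12 includes 1, and its ratio was 0.790 in the scaling by the library median.

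**Figure D5:**
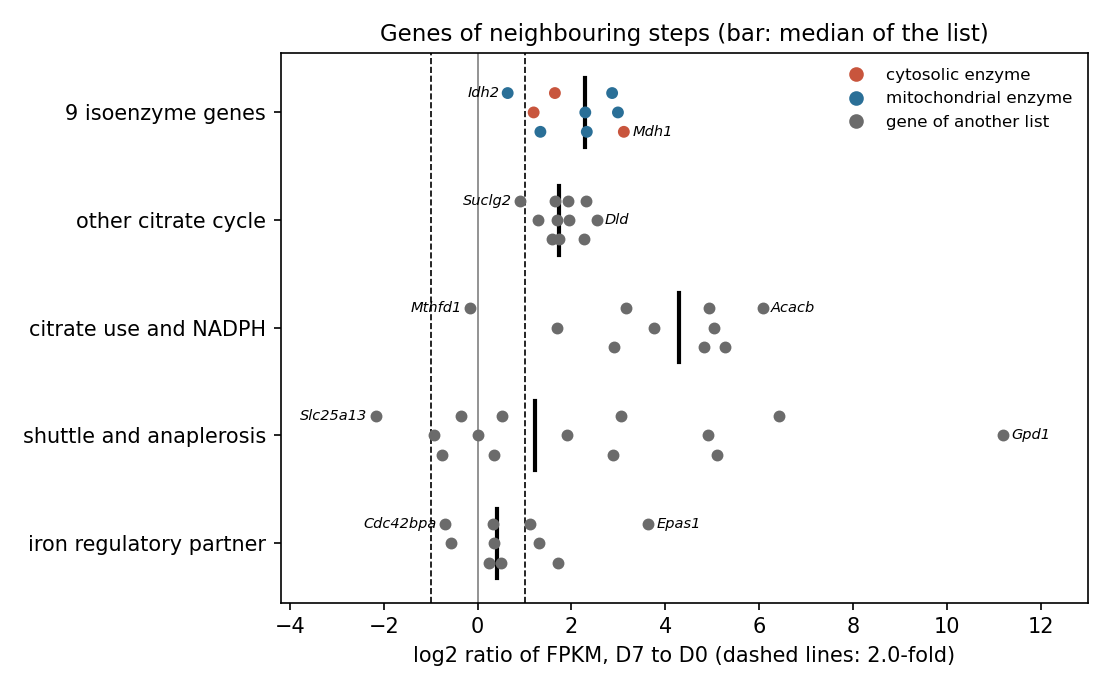
Log2 ratio of FPKM at D7 to D0 (horizontal axis) for the 9 genes, coloured by compartment, and for the genes of 4 lists (grey), with thick bars at the medians, dashed lines at 2.0-fold in either direction, and the lowest and highest gene of each row named. The median of the 9 genes, 2.29, lies above that of the other citrate cycle genes, 1.74, and below that of citrate use and NADPH, 4.30.

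Because the product of Aco1 also acts on messenger RNAs with iron-responsive elements, 10 genes linked to that role were read. Of these, 4 were higher by at least 2.0-fold and 0 were lower, against 18.5% and 13.2% of all genes above 0 in both libraries. The median ratio of the 10 genes was 1.34 (log2 0.42, or 0.49 without Alas2). In the scaling by the library median 2 were higher. Ireb2, which encodes the sister protein of Aco1, had FPKM of 13.3 and 16.9, a ratio of 1.27 (1.18 to 1.36) that came to 0.993 in that scaling, so its direction rests on the scaling. Tfrc, the transferrin receptor, had FPKM of 9.71 and 32.0, a ratio of 3.29 (3.06 to 3.54), close to the ratio of Aco1. Fth1, the ferritin heavy chain, had a ratio of 2.46 (FPKM 1694 and 4163), which came to 1.93 in the scaling by the library median. Ftl1, the light chain, had a ratio of 0.673 (FPKM 5407 and 3637). Fbxl5, an iron-sensing subunit of a ubiquitin ligase, had a ratio of 2.17 (FPKM 16.3 and 35.4), which came to 1.70 in that scaling.

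The largest ratio of this list was that of Epas1, a hypoxia-inducible factor, at 12.4 (10.8 to 14.2), with FPKM of 2.01 and 24.8. Cdc42bpa, a kinase, had the smallest, 0.619 (FPKM 13.8 and 8.56). The iron transporters Slc11a2 (1.41, FPKM 12.0 and 16.9) and Slc40a1 (1.25, FPKM 7.13 and 8.94) did not reach 2.0-fold, and Slc40a1 came to 0.982 in the scaling by the library median. Alas2 had 1 fragment in each library and gives no comparison.

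For each of the 9 genes, the gene with the most alike pair of levels was sought among 10770 others with an FPKM of at least 1 in both libraries, by the distance between their log2 levels over the 2 libraries. The nearest gene to Cs was Taldo1 (FPKM 98.5 and 495.5, distance 0.035). Nearest to Idh3a was Hadh (distance 0.17), to Idh3b Ech1 (0.14), to Idh3g Acadl (0.17), to Idh1 Ndufa12 (0.095) and to Mdh2 Atp5o (0.14). Nearest to Mdh1 was Cav1 (0.21), to Aco1 Adamts2 (0.041) and to Idh2 Nrp1 (0.0079). With only 2 libraries, likeness of this kind rests on a single level and a single ratio.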

How the data were processed

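RNA-Seq of brown preadipocytes (D0) and brown adipocytes (D7), 1 library each, was analysed. The authors removed low-quality, adaptor, duplicate and rRNA reads, used SOAP2 to align the rest (mm10 and gene sequences), and deposited FPKM values per gene. The submitters' processing notes also name Bowtie2, and whether counting used the strand, which library preparation kept, is not given in the sources used here. Of 27324 rows, 3963 held no value. Ratios of FPKM at D7 to D0 were computed without a pseudocount for genes above 0 in both libraries. They were called at 2.0-fold, the threshold of the study, whose handling of zeros and scaling is not given in the sources used here. With 1 library a group no test was made.

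Fragment numbers came from FPKM steps in 602 single-exon genes, after taking 179 bp (D0) or 182 bp (D7) from each length. Of 79 and 90 low values, of at most 20 fragments, 100% were whole to within 0.1. For other genes the annotated transcript length was used (GENCODE M21), which makes their numbers approximate, and 3 fragments served as the floor. Coordinates are mm10, from GENCODE M21.

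The 9 genes and the lists were chosen with earlier results of these data known. All 9 genes are named, with the extremes of each list, list genes short of 2.0-fold, list genes of adjoining steps and the nearest gene in level. Other list genes named beside these, and comparisons of the NAD-dependent subunits with Idh2, were chosen after their values were seen. List genes that the text does not name are in its counts and medians. Some further genes chosen for the lists are not reported here and enter neither. Alternatives were 5 scalings, 2 pseudocounts, an FPKM filter, other thresholds and other lengths. Calculations were tested on simulated data. Software was matplotlib 3.10.9 for plots and, in Python 3.11.15, scipy 1.17.1 for intervals with pandas 2.3.3 and numpy 2.4.6.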

Additional observations from a re-analysis of the deposited data

How the results depend on the processing

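The direction of all 9 ratios held under each of the 7 alternatives run for them, and the intervals of the 9 ratios and of 5 changes within the isocitrate and malate dehydrogenases kept their side of 1, and the ratios that of 2.0, with the longest coding transcript or without the length correction. Other intervals were not recomputed. Idh2 lay below 2.0-fold under each, between 1.22 and 1.61, and Mdh1 ranged from 6.79 to 8.95. The 38 changes between genes under pseudocounts of 0.1 and 1 stayed within their intervals. The median log2 ratio of the 9 genes was 2.34 with centring on the median ratio, 2.25 with the upper quartile and 1.94 with the floor of 0.01 and the library median, against 2.29. At 4.0-fold, 5 of the 9 genes were higher, as were 3 other citrate cycle genes and 1 iron gene. The floor with the library median left 2 iron genes, and the filter at an FPKM of 1 left 4 shuttle genes. Over all genes, higher counts were 1455 with a pseudocount of 1, 1268 with that filter and 1211 at 4.0-fold. Lower counts were 1009, 1062 and 578 in the same order, 3538 at 1.5-fold and 3832 with the floor and library median. The thresholds, the filter and the pseudocount, which moves every ratio toward 1, lower or raise these counts by construction. For the floor with the library median, which differs in both the floor and the scaling, the cause was not tested. Summing rows of 1 symbol was not run, since each of the 9 genes has 1 row. No paired analysis was possible because each stage has 1 library. The spread between cultures is unknown.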
